A study of Mus musculus with 6 samples.

Results

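The 8 genes described here encode caspases and death receptors: the inflammatory caspases *Casp1*, *Casp4* and *Casp12*, the initiator caspases *Casp8* and *Casp9*, the effector caspase *Casp6*, and the death receptors *Fas* and *Tnfrsf1a*. They were taken by symbol from the 55426 genes of the deposited table, and each symbol matched 1 row. Their mRNA was measured by RNA-seq in abdominal aortas of male mice on a C57BL/6J background, with 3 libraries of *Prdm16*SMKO mice, here also called knockouts (*Prdm16* fl/fl, *Myh11*-CreERT2), and 3 control libraries (*Myh11*-CreERT2, called wild-type in the study). Mice of 8 to 10 weeks received tamoxifen by gavage at 75 mg/kg/day for 5 days and RNA was taken 2 weeks later, a schedule that the labels do not give separately for the controls. The *Myh11* promoter drives the recombinase in smooth muscle cells, those of the gut included, so other cells of the aorta keep *Prdm16*, and the Cre transgene lies on the Y chromosome. The labels do not say whether each library came from 1 mouse, so p-values measure the spread between these libraries, which may be technical. *Prdm16*, the targeted gene, was at 33.42, 36.83 and 30.77 TPM in the controls and at 20.75, 27.67 and 14.77 TPM in the knockouts, without overlap. Its log2 fold change was −0.70 (limma, Benjamini-Hochberg adjusted p = 0.376), over all exons of the gene and all cells of the aorta.

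Caspases are cysteine proteases made as inactive proenzymes, so the mRNA level sets how much proenzyme can be made and not how much is active. In the extrinsic pathway a ligand such as FAS ligand or TNF binds a death receptor, the adaptor FADD recruits caspase 8, and caspase 8 activates effector caspases. In the intrinsic pathway cytochrome c and APAF1 assemble the apoptosome that activates caspase 9. Of the inflammatory caspases, caspase 1 acts instead in inflammasomes, where it cleaves gasdermin D and releases interleukin 1β and interleukin 18. Loss of vascular smooth muscle cells (VSMCs) by apoptosis is a known feature of abdominal aortic aneurysm, and the study asked whether PRDM16 takes part in it. In A7r5 cells treated with TNF-α and cycloheximide, it reports more apoptosis upon *Prdm16* knockdown.

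Among the 8 genes only *Casp1* had *Prdm16*SMKO libraries that all lay on one side of the control libraries, at 1.97 times the control mean. The other 7 genes overlapped between the groups, and their mean TPM differed from control by −13.4% for *Casp12* to 9.55% for *Casp6*. None of the 8 was called at an adjusted p under 0.05 (limma, Benjamini-Hochberg over 15775 genes), a threshold passed by 56 of the tested genes (0.355%). The study reports many more differing genes from these libraries. Among its upregulated ones, *Tnfsf10* and *Rassf2* stand in its list for positive regulation of apoptosis. Neither of these 2 genes was called in the present fit (limma, Benjamini-Hochberg adjusted p = 0.354 and 0.256). A gene without a call here may therefore still differ between the groups. At an unadjusted p under 0.05 there was 1 of the 8, *Casp1*, against 8.74% of all tested genes (4.88% higher and 3.85% lower in *Prdm16*SMKO mice). Control and *Prdm16*SMKO libraries were fully apart in 1 of the 8, and for all tested genes this share was 12.8% (7.02% higher and 5.76% lower). Neither count stands far from its background. The log2 fold change was above 0 in 3 of the 8, against 54.2% of all tested genes, with a median of −0.03 over the 8 and 0.02 over all.

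*Casp1*, *Casp4* and *Casp12* lie in tandem on the plus strand of chromosome 9 and did not show a common difference, so their promoter windows are printed here, each with 250 bases before and 50 bases from the RefSeq transcription start on (GRCm38.p6). Capitals mark matches to the interferon-gamma activated site TTCNNNGAA, which reads alike on both strands, and to the degenerate κB consensus, the motif of NF-κB, on either strand. The *Casp1* window spans chr9:5298267-5298566, that of *Casp4* chr9:5308599-5308898 and that of *Casp12* chr9:5345226-5345525.
Casp1: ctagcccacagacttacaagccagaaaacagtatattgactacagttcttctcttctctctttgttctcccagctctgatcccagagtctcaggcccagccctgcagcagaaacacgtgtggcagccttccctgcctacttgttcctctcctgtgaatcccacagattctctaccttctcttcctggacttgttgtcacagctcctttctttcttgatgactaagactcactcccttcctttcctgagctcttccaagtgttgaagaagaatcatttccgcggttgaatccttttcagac
Casp4: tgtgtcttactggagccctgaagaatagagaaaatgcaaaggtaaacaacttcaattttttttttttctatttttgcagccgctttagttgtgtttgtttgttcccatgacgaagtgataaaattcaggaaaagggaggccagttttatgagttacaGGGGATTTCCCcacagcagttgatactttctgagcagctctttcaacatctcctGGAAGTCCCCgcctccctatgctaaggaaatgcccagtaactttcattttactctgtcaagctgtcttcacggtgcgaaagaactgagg
Casp12: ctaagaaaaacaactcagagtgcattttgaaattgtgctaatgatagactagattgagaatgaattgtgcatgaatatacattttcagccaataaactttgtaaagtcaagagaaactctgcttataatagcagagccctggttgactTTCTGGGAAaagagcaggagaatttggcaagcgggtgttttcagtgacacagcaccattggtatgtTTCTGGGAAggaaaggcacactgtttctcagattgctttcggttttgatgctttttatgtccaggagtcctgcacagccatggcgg
The *Casp12* window held 2 matches to TTCNNNGAA, from −102 to −94 and from −36 to −28 relative to the start, and the *Casp1* and *Casp4* windows held 0 of this motif. *Fas* (from −93 to −85) and *Tnfrsf1a* (from −244 to −236) held 1 each, and 8.3% of all 32851 promoter windows of this length held at least 1. Matches of *Fas* and *Casp12* had the same letters, TTCTGGGAA. Neither the core of the interferon-stimulated response element, GAAA and GAAA with any 2 bases between (3.44% of windows), nor a narrow form of the κB motif, GGGA and TTTCC with any 1 base between (0.411%), searched on both strands, occurred in the 9 windows of the 8 genes. The κB consensus, which allows more letters and was searched after the windows had been seen, matched in the windows of *Casp4* and in those of no other of the 8 genes, against 8.46% of all windows. In the printed *Casp4* window it matched from −93 to −84 and from −92 to −83, which overlap, and from −39 to −30. The GC box GGGCGG stood in the windows of *Casp6*, *Casp9* and *Fas* (35.7% of all windows), and TATAAA in none (13.6%). A match is a run of letters and not a measured binding site, and a window without one says only that these letters are absent from it.

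Levels are given in TPM, transcript abundances corrected for length and scaled to one fixed sum per library, so that genes can be set side by side. By mean TPM over the 6 libraries, *Tnfrsf1a* (42.6) and *Casp12* (39.2) stood highest, followed by *Fas* (28.2), then *Casp4* (8.63), *Casp8* (8.47), *Casp9* (7.40) and *Casp6* (6.15), with *Casp1* (3.43) lowest. The step from *Fas* to *Casp4* was 3.27-fold, the 1 step in this order at which the ranges of neighbouring genes did not overlap. *Casp4* exceeded *Casp8* in 3 of 6 libraries, so these genes cannot be ordered. *Tnfrsf1a* was above *Casp12* in 5 of 6 libraries and *Casp9* above *Casp6* in 5 of 6, while *Casp12* was above *Fas*, *Casp8* above *Casp9* and *Casp6* above *Casp1* in 6 of 6. *Tnfrsf1a* was at the 87.2nd percentile of mean TPM among tested genes, and *Casp1* was at the 31.9th.

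**Figure D1:**
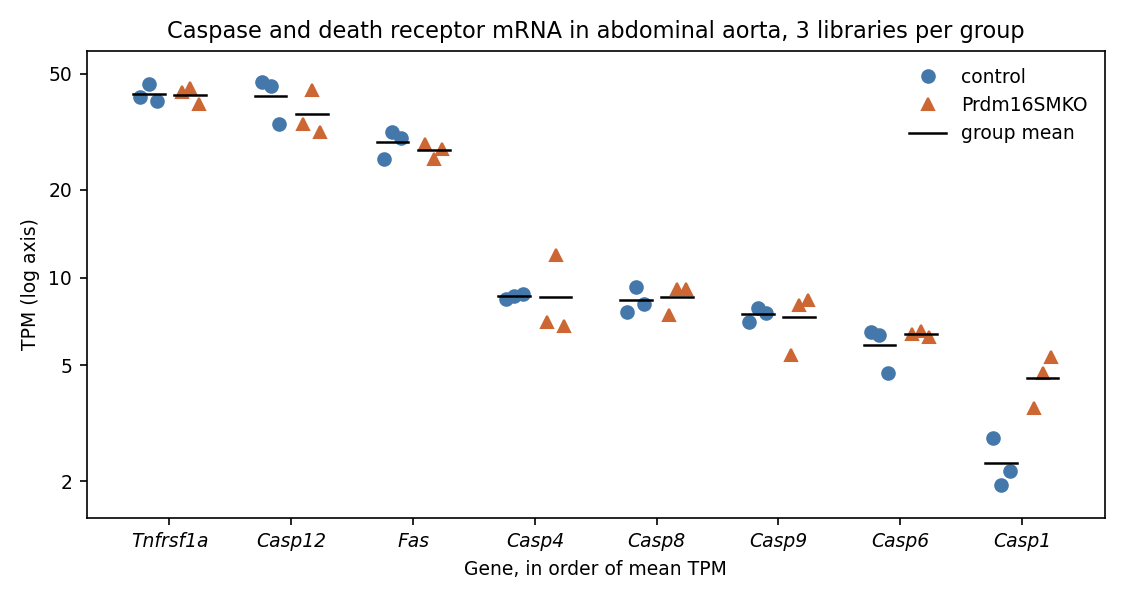
TPM (log axis) of the 8 genes in each library, with 3 control libraries (circles) and 3 *Prdm16*SMKO libraries (triangles) and a bar at each group mean. The 2 groups are apart at *Casp1* (1.95 to 2.81 against 3.57 to 5.36 TPM) and overlap at the other 7 genes.

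*Casp1* (ENSMUSG00000025888; chromosome 9 of GRCm38, 5298517 to 5307265, plus strand) encodes caspase 1, the protease of the canonical inflammasome. Controls 1, 2 and 3 had 2.81, 1.95 and 2.17 TPM, and knockouts 1, 2 and 3 had 3.57, 4.70 and 5.36 TPM. Every *Prdm16*SMKO library was above every control library, and the lowest of them exceeded the highest control by less than the SD of its own group. Group means were 2.31 ± 0.447 TPM for the controls and 4.54 ± 0.905 TPM for the knockouts (SD, n = 3 each). On the log2(TPM + 0.5) scale, which understates the change of low genes, the difference was 0.84 with a standard error of 0.23 and a 95% interval from 0.32 to 1.36 (limma, Benjamini-Hochberg adjusted p = 0.266). That p ranked 327th of the 15775 genes. An exact two-sided permutation test over the libraries gave p = 0.1, the smallest that 3 against 3 allows (0.8 after Benjamini-Hochberg adjustment over the 8 genes). Of the 2456 tested genes with a mean of 2 to 5 TPM, 6.27% had a log2 fold change at least as high as *Casp1*, and in 10.9% the *Prdm16*SMKO libraries lay above the controls. In bulk aorta, more cells that carry *Casp1* mRNA and more mRNA per cell cannot be told apart.

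*Casp4* (ENSMUSG00000033538; chromosome 9, 5308828 to 5336783, plus strand), which encodes the caspase that responds to bacterial lipopolysaccharide in the cytosol, begins 10.3 kb from *Casp1*. It was at 8.47, 8.66 and 8.79 TPM in control and at 7.05, 11.98 and 6.81 TPM in knockouts 1, 2 and 3. The controls were nearly identical, with a coefficient of variation of 1.86%, and *Prdm16*SMKO replicate 2 lay above them while replicates 1 and 3 lay below (33.9%). The log2 fold change was −0.05 (95% interval −0.57 to 0.47). Without *Prdm16*SMKO replicate 2 it was −0.30, and with array weights it was 0.03. *Casp12* (ENSMUSG00000025887; chromosome 9, 5345430 to 5373032, plus strand), which encodes a caspase of the endoplasmic reticulum, was at 46.99, 45.39 and 33.76 TPM in control and at 33.75, 43.87 and 31.67 TPM in *Prdm16*SMKO mice. Control replicate 3 fell among the *Prdm16*SMKO libraries, and *Prdm16*SMKO replicate 2 fell among the controls. Its log2 fold change of −0.20 (95% interval −0.64 to 0.23; limma, Benjamini-Hochberg adjusted p = 0.888) was the lowest of the 8 genes.

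Within this cluster *Casp12* supplied most of the transcripts. *Casp1* made up 4.82%, 3.48% and 4.85% of the summed TPM of the 3 genes in control replicates 1, 2 and 3, and 8.05%, 7.76% and 12.2% in *Prdm16*SMKO replicates 1, 2 and 3. The shares of *Casp4*, from 14.5% to 19.7% in control and from 15.5% to 19.8% in *Prdm16*SMKO mice, overlapped. The log2 ratio of *Casp1* to *Casp4* was −1.71 ± 0.24 in control and −0.82 ± 0.48 in *Prdm16*SMKO mice (SD, n = 3 each), a difference of 0.89. Against *Casp12* it was −3.92 ± 0.28 and −2.87 ± 0.36, a difference of 1.04. Against each of the other 7 genes in turn the ratio of *Casp1* was higher in every *Prdm16*SMKO library than in every control. Differences ran from 0.70 (*Casp6*) to 1.04 (*Casp12*), with an exact permutation p of 0.1 for each. These 7 ratios share the values of *Casp1*, which was picked as the numerator after its values were seen. Their p-values therefore repeat 1 result and add no support to it. In the GENCODE M21 transcripts, *Casp1*, *Casp4* and *Casp12* shared 0 runs of 75 bases with each other or with any other gene.

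*Casp8* (ENSMUSG00000026029; chromosome 1, 58795374 to 58847503, plus strand), the initiator below the death receptors, was at 7.62, 9.32 and 8.14 TPM in control and at 7.44, 9.17 and 9.12 TPM in *Prdm16*SMKO mice. The groups covered nearly the same range, and the log2 fold change was 0.03 (95% interval −0.36 to 0.43). Of its runs of 75 bases, 1.95% also occurred in *Gm20257*. *Casp6* (ENSMUSG00000027997; chromosome 3, 129901425 to 129914103, plus strand), an effector caspase that cleaves nuclear lamins, was at 6.53, 6.38 and 4.69 TPM in control and at 6.43, 6.57 and 6.28 TPM in *Prdm16*SMKO mice. Only control replicate 3 stood away from the other 5 libraries, and the log2 fold change of 0.13 (95% interval −0.29 to 0.56) was −0.01 without it.

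*Casp9* (ENSMUSG00000028914; chromosome 4, 141793612 to 141815976, plus strand), the initiator of the intrinsic pathway, was at 7.04, 7.89 and 7.58 TPM in control and at 5.43, 8.06 and 8.41 TPM in *Prdm16*SMKO mice. *Prdm16*SMKO replicate 1 was the lowest and replicates 2 and 3 were the highest of the 6 libraries, and the log2 fold change was −0.06 (95% interval −0.52 to 0.40), or 0.13 without *Prdm16*SMKO replicate 1. *Casp9* lies 12.5 Mb from *Prdm16* on the same chromosome. Of the other genes whose lower end is within 200 kb of that of *Casp9*, 8 were tested and 2 were called, against 0.355% of all tested genes. An unadjusted p under 0.05 (limma) was found for 5, all lower in *Prdm16*SMKO mice, where the background is 3.85%. Neighbours were counted around *Casp9*, *Casp1*, *Casp4* and *Casp12* only, and with earlier results of these data known. These counts are therefore no test of a local excess. The cause of these differences was not tested. The 5 genes were *Slc25a34*, *Tmem82*, *AI507597*, *Plekhm2* and *Ddi2*. *AI507597* lies within *Tmem82* on the opposite strand, so reads of these 2 genes may not be separable and their values may not be independent. *Slc25a34*, a mitochondrial carrier gene at −175 kb, and *Tmem82*, at −180 kb, were called, with log2 fold changes of −3.19 and −2.67 (limma, Benjamini-Hochberg adjusted p = 7.92e-04 and 0.0164). The call of *Tmem82* was lost without control replicate 1 (limma adjusted p = 0.0668) or 2 (0.114), with no expression minimum (0.112) and with a replicate block (0.0659). *AI507597* was listed at 0 in all 3 *Prdm16*SMKO libraries. Nearer to *Casp9*, *Ddi2* (−116 kb) had a log2 fold change of −0.44, *Dnajc16* (−33.4 kb) of 0.01 and *Efhd2* (64.5 kb) of 0.17. The pancreatic protease genes *Cela2a* and *Ctrc* overlap the end of *Casp9* on the opposite strand, the library kit is not named as a stranded one, and both were below the expression minimum.

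**Figure D2:**
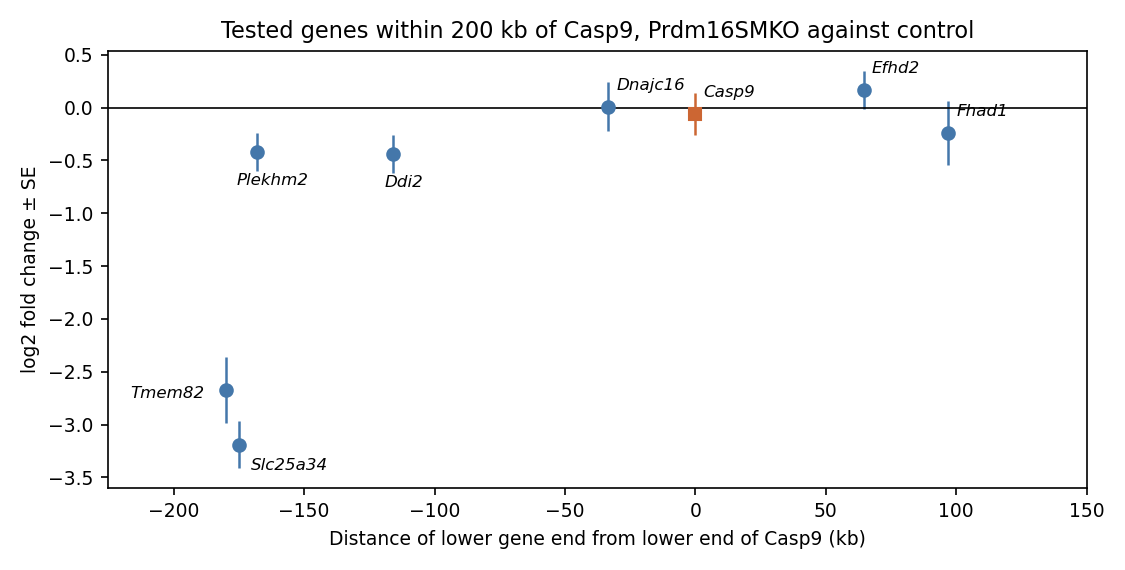
Log2 fold change (*Prdm16*SMKO against control, bars are standard errors) of *Casp9* (square) and 7 tested neighbours (circles) against the distance in kb of each gene's lower end from that of *Casp9*. *Tmem82* and *Slc25a34*, at −180 and −175 kb, sit at −2.67 and −3.19, and *Casp9* sits at −0.06; *AI507597*, listed at 0 in one group, is not drawn.

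*Fas* (ENSMUSG00000024778; chromosome 19, 34290666 to 34327772, plus strand), the receptor of FAS ligand, was at 25.53, 31.67 and 30.24 TPM in control and at 28.82, 25.55 and 27.63 TPM in *Prdm16*SMKO mice. The 3 *Prdm16*SMKO values fell inside the control range, and the log2 fold change was −0.09 (95% interval −0.43 to 0.26). *Tnfrsf1a* (ENSMUSG00000030341; chromosome 6, 125349362 to 125362484, plus strand), TNF receptor 1, was at 41.69, 46.29 and 40.23 TPM in control and at 43.30, 44.69 and 39.28 TPM in *Prdm16*SMKO mice. Its means of 42.7 ± 3.16 and 42.4 ± 2.81 TPM (SD, n = 3 each) gave a log2 fold change of −0.01 (95% interval −0.33 to 0.31), with the smallest standard error of the 8 genes, 0.14. For the 7 genes other than *Casp1*, adjusted p-values ran from 0.888 to 0.994 (limma, Benjamini-Hochberg) and each 95% interval lay inside a 2-fold change in either direction, as it did for 72.0% of all tested genes. Smaller changes are not excluded by these intervals, whose outermost bounds were folds of 0.642 (*Casp12*) and 1.47 (*Casp6*).

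The other genes of these pathways were read from 7 lists of 57 genes, of which 42 reached the expression minimum, a mean of 0.5 TPM over the 6 libraries. None of the 42 was called (limma), and 4 had an unadjusted p under 0.05, all higher in *Prdm16*SMKO mice, where the background is 4.88% of tested genes. The groups were apart in 5 of the 42, all higher, against 7.02% of all tested genes, and these were *Tnfsf10*, *Eda2r*, *Tnfrsf22*, *Mlkl* (0.21) and *Gsdme* (0.59), the last 2 named after their values were seen and given as log2 fold changes. The median log2 fold change was 0.02, as it was for all tested genes. *Casp2*, a caspase activated by the PIDDosome, was at 5.52, 6.68 and 4.69 TPM in control and at 5.53, 7.34 and 4.27 TPM in the knockouts (log2 fold change 0.00), with overlapping groups. *Casp14*, a caspase of the epidermis, was listed at 0 in all 6 libraries.

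The ligands of both death receptors among the 8 genes were low in this tissue. *Fasl* was listed at 0 in 5 libraries and at 0.20 TPM in *Prdm16*SMKO replicate 3, and *Tnf* ranged from 0.05 to 0.09 TPM in control and from 0.08 to 0.23 TPM in *Prdm16*SMKO mice, both below the minimum. *Tnfsf12* was the most abundant of the 6 ligand genes, at 44.00 to 54.05 TPM. *Tnfsf10*, which encodes TRAIL, was at 2.22, 1.45 and 1.43 TPM in control and at 2.43, 6.12 and 4.16 TPM in the knockouts. Its log2 fold change was 1.05, with 0.32 as standard error (limma, Benjamini-Hochberg adjusted p = 0.354). The study lists this gene among its own upregulated genes of these libraries, so its direction here is not independent. The groups were apart by the gap between 2.22 and 2.43 TPM.

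Of the other death receptors and decoys, 7 of 8 were tested, 4 higher and 3 lower. An unadjusted p under 0.05 (limma) was found for 3, all higher, where the background is 4.88% of tested genes. *Eda2r*, a receptor of ectodysplasin A2, was at 0.99, 1.17 and 1.68 TPM in control and at 2.20, 3.02 and 2.58 TPM in *Prdm16*SMKO mice (log2 fold change 0.81, limma, Benjamini-Hochberg adjusted p = 0.369). With array weights it was called (1.03, limma adjusted p = 0.0334). *Tnfrsf22*, a decoy receptor for TRAIL, was at 2.02, 1.64 and 1.15 TPM against 4.12, 2.96 and 2.52 TPM, without overlap. *Tnfrsf21*, death receptor 6, was at 1.81, 2.04 and 1.04 TPM against 4.86, 1.92 and 3.22 TPM, and its groups overlapped. *Tnfrsf10b*, the TRAIL receptor of mice, had a log2 fold change of −0.43 and *Tnfrsf1b*, TNF receptor 2, of −0.55, each with overlapping groups.

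Adaptors and kinases of the death receptor complexes (9 of 9 tested) had log2 fold changes from −0.24 to 0.21 and 0 with an unadjusted p under 0.05. *Fadd* was at 2.40 ± 0.333 TPM in control and 2.66 ± 0.199 TPM in *Prdm16*SMKO mice. *Cflar*, which encodes the caspase 8 inhibitor cFLIP, was at 46.7 ± 3.82 and 45.9 ± 4.20 TPM (SD, n = 3 each), above the level of *Casp8* in every library. The 9 genes of the apoptosome and the caspase inhibitors ranged from −0.15 to 0.13, with *Apaf1* at 3.22 ± 0.229 and 3.13 ± 0.936 TPM, and the 5 caspase substrate genes ranged from −0.23 to 0.29. In each of these lists no gene passed an unadjusted p of 0.05.

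Genes that work with caspase 1 were mostly low. Of 16 inflammasome sensor and substrate genes, 10 were below the minimum and 6 were tested, 5 higher and 1 lower, with a median log2 fold change of 0.40 and 0 with an unadjusted p under 0.05. That median was 0.21 without *Prdm16*SMKO replicate 2 and 0.13 with a minimum mean of 2 TPM. *Gsdmd*, which encodes gasdermin D, was at 6.40, 4.65 and 4.59 TPM in control and at 7.26, 9.86 and 5.55 TPM in *Prdm16*SMKO mice, with overlapping groups (log2 fold change 0.48, limma, Benjamini-Hochberg adjusted p = 0.673; 0.28 without *Prdm16*SMKO replicate 2). *Pycard*, the adaptor that joins sensors to caspase 1, was at 4.48, 4.46 and 3.09 TPM against 4.44, 4.49 and 1.84 TPM (−0.21). *Il18* had a log2 fold change of 0.34 with a range from 0.26 to 2.59 TPM. *Il1a* was listed at 0 in all 6 libraries, *Nlrp3* reached at most 0.24 TPM, and *Il1b* was at 0.84 TPM in *Prdm16*SMKO replicate 2 and at most 0.08 TPM elsewhere. By quantitative PCR, a different measure, the study reports *Il1b* as significantly higher in abdominal aortas of *Prdm16*SMKO mice.

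**Figure D3:**
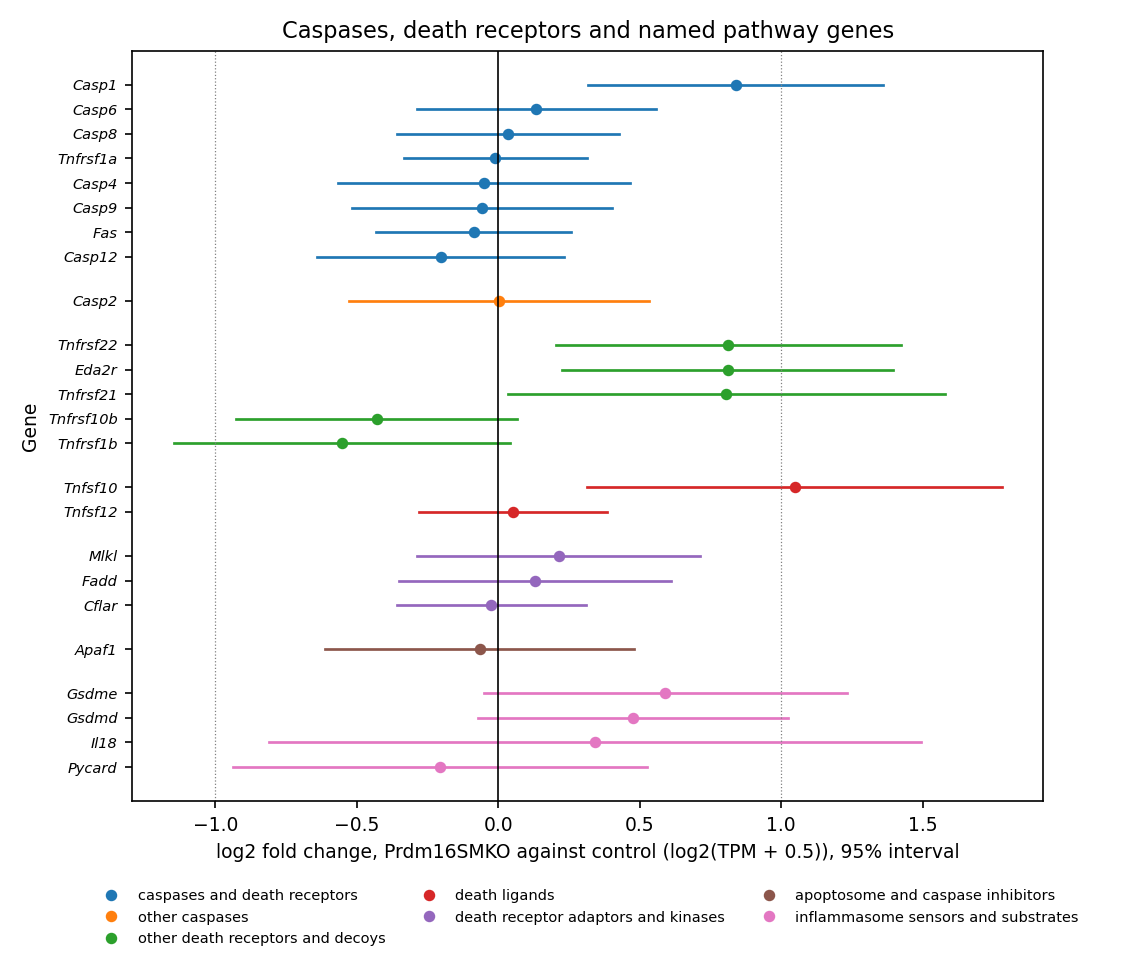
Log2 fold change (points) with 95% interval (lines) of the 8 caspase and death receptor genes and of the tested pathway genes that the text names, grouped by list and sorted within it; dotted lines mark a 2-fold change in either direction. *Casp1* (0.84), *Tnfsf10* (1.05), *Eda2r*, *Tnfrsf22* and *Tnfrsf21* (0.81 each) are the drawn genes whose interval lies above 0, and none was called.

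Macrophages carry *Casp1*, and interferons induce it, so genes of both kinds are given here beside it. Of 10 macrophage markers, 9 were higher and 1 lower in the knockouts. Their median log2 fold change was 0.76, 7 with an unadjusted p under 0.05, all higher (4.88% of all tested genes), and 0 called. Groups were apart in 5 of the 10, all higher, against 7.02% of all tested genes. Their summed level was 82.0 to 128 TPM in control and 129 to 238 TPM in *Prdm16*SMKO mice, and none of the 10 was at 0 in all libraries. Taken relative to the mean log2 level of these markers, *Casp1* was at −1.13, −1.30 and −0.86 in control and at −0.79, −1.28 and −0.59 in *Prdm16*SMKO replicates 1, 2 and 3, so that the groups overlapped and differed by 0.21. *Prdm16*SMKO replicate 2 had the highest macrophage level of the 6 libraries. Without it the log2 fold change of *Casp1* was 0.81 and the median of the markers was 0.52. *Prdm16*SMKO replicate 1 and control replicate 1 stood close, at 2.81 and 2.85 in mean log2 level and at 129.0 and 128.2 TPM in sum. The groups thus overlapped by mean log2 level and were apart by summed level. Of 22 interferon response genes, 20 were tested and all 20 were higher, with a median of 0.73. Of the 20, 14 had an unadjusted p under 0.05, all higher (4.88% of all tested genes), and 14 had groups apart (7.02% of all tested genes were apart and higher). The 1 called gene was *Rtp4*, named after its values were seen (2.05 to 2.47 TPM in control and 5.27 to 7.04 TPM in the knockouts, limma, Benjamini-Hochberg adjusted p = 0.0405). The summed level of the 22 genes was 131.5 to 211.3 TPM in control and 235.4 to 280.8 TPM in *Prdm16*SMKO mice, and relative to their mean log2 level *Casp1* differed by 0.10, with overlapping groups. The part of either list in the *Casp1* values was not tested.

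**Figure D4:**
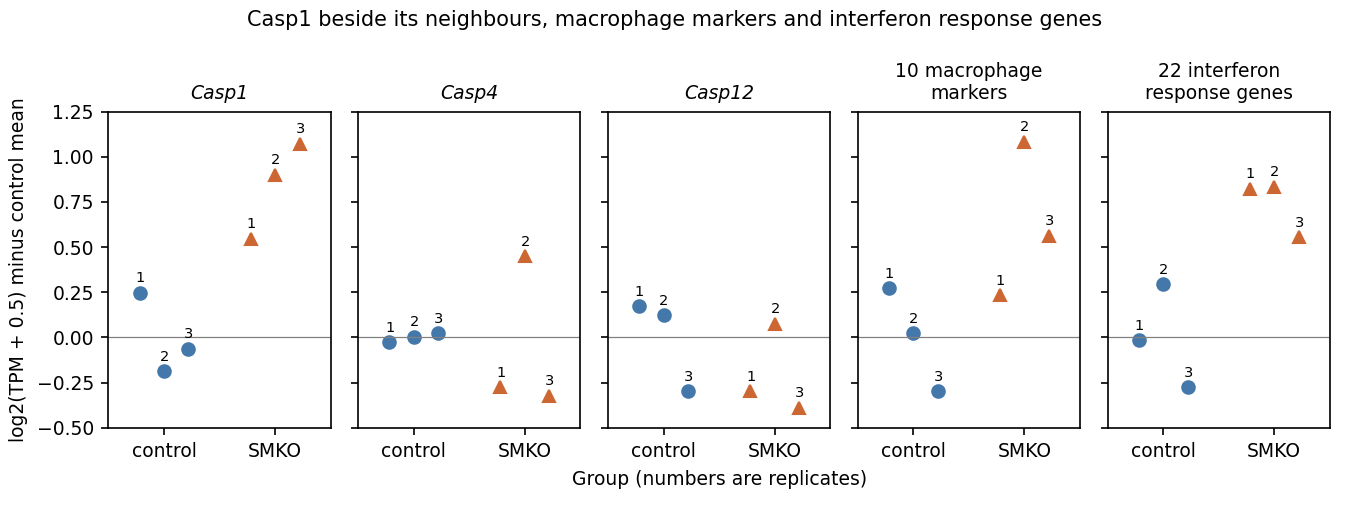
Log2(TPM + 0.5) minus the control mean in each library (numbers are replicates) for *Casp1*, *Casp4*, *Casp12* and the means of 10 macrophage markers and 22 interferon response genes. *Casp1* and the interferon response genes are apart between groups, and *Casp4* and *Casp12* overlap. The macrophage mean overlaps only through *Prdm16*SMKO replicate 1 and control replicate 1, whose summed marker TPM (129.0 and 128.2) stood in the other order.

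Other marker lists describe the tissue behind these values. VSMC markers were abundant, with summed levels of 14920 to 25280 TPM in control and 11510 to 17650 TPM in *Prdm16*SMKO mice and a median log2 fold change of −0.39. Endothelial markers had a median of 0.35 (7 of 8 higher) and fibroblast markers of 0.06 (6 of 8 higher), where 54.2% of all tested genes were higher. Groups were apart in 1 endothelial marker that was higher and 1 that was lower. Among fibroblast markers they were apart in 1, which was lower (7.02% of all tested genes were apart and higher, 5.76% lower). Adipocyte markers had a median of 1.02 (5 of 5 higher, with *Prdm16*SMKO replicate 3 at 1970 TPM in sum against 327.2 to 766.7 TPM in the other 5 libraries). Of 8 T and NK cell markers 1 was tested, of 5 B cell markers 3 and of 5 neutrophil markers 2, each of them higher, and *Ly6g* was listed at 0 throughout. Summed T and NK cell markers were 0.31 to 2.76 TPM in control and 3.35 to 4.31 TPM in *Prdm16*SMKO mice, and neutrophil markers 0.63 to 1.32 and 1.56 to 7.33 TPM. Summed B cell markers overlapped between the groups, at 2.9 to 11.42 TPM in control and 7.76 to 13.36 TPM in *Prdm16*SMKO mice. The part of these lists in the *Casp1* values was not tested either. Mitochondrial transcripts took 15.8% to 27.4% and 45S ribosomal RNA 15.6% to 31.5% of a library's TPM, overlapping between groups, and 20330 to 22100 genes were above 0.

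The genes whose values across the 6 libraries were most like those of *Casp1*, by the root mean square difference of centred log2(TPM + 0.5) among 9669 genes averaging 5 TPM or more, were *Rassf2* (0.0904), *Cpxm2* (0.114) and *Cyp4b1* (0.147). *Rassf2*, a Ras association domain gene that the study also lists as upregulated in these libraries, was at 4.99, 4.03 and 4.40 TPM in control and at 6.32, 8.17 and 8.54 TPM in *Prdm16*SMKO mice. *Cpxm2*, a carboxypeptidase family gene, was at 18.09, 14.52 and 18.36 TPM against 24.63, 33.69 and 32.88 TPM. For *Casp12* the nearest genes were *Zfp37* (0.0417), *Zmiz1* (0.0456) and *Rad17* (0.0466), which were likewise lowest in control replicate 3 and *Prdm16*SMKO replicates 1 and 3.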

How the data were processed

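The authors deposited TPM values, 1 per gene and library, rounded to 2 decimals. The submitters' processing notes name cutadapt 2.3, STAR 2.7.8a and RSEM 1.3.3 on GRCm38, and the annotation release is not given in the sources used here. Libraries were of polyadenylated RNA read as 151 bp pairs, 40 M pairs on average, and TPM keeps no depth, so counting error is unknown. Columns were joined to samples by their descriptions in the labels.

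log2(TPM + 0.5) of 15775 genes averaging 0.5 TPM or more was compared between groups by limma 3.58.1 in R 4.3.3, with variances moderated by a trend, two-sided, adjusted by Benjamini-Hochberg and called under 0.05. The fit was also run on simulated data with independent errors and no shifts of whole libraries, and its outcome is not reported here. Alternatives were 15: other pseudocounts (0.1, 1), minima (none, 2 TPM), scalings, array weights, no variance trend, a replicate block and each library left out. Python 3.11.15, scipy 1.17.1 and matplotlib 3.10.9 made exact tests and figures. Gene positions and transcripts are those of GENCODE M21, and all 8 genes had RefSeq promoter windows.

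The 8 genes, the pathway and marker lists and the tests were chosen with earlier results of these data known. Named pathway genes were those called, up to 12 with an unadjusted p under 0.05, and the partners *Fadd*, *Cflar*, *Apaf1*, *Pycard* and *Gsdmd*, beside tested neighbours within 200 kb of *Casp1*, *Casp4*, *Casp12* or *Casp9* and the 3 genes most like each of the 2 members of smallest p. Other pathway genes given with values, *Tnf*, *Fasl*, *Tnfsf12*, *Tnfrsf10b*, *Tnfrsf1b*, *Casp2*, *Casp14*, *Il18*, *Il1a*, *Il1b* and *Nlrp3*, were chosen after their values were seen. Values of 2 further partners in that rule are not reported here.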

Additional observations from a re-analysis of the deposited data

How the results depend on the processing

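The number of the 8 genes called was 0 under all 15 alternatives, and for *Casp1* the log2 fold change ran from 0.61 (array weights) to 0.99 (without *Prdm16*SMKO replicate 1), with limma adjusted p-values from 0.112 to 0.556. *Casp12* was lower under every alternative (−0.35 to −0.11). Of the 57 pathway genes, array weights called 1, *Eda2r*, and the other alternatives 0. With array weights the sign turned for *Casp4* (0.03), *Casp9* (0.01), *Fas* (0.06), *Tnfrsf1a* (0.03) and *Dnajc16* (−0.01), and without mitochondrial and 45S ribosomal RNA for *Tnfrsf1a* (0.01). With single libraries left out, the log2 fold changes ran from −0.30 to 0.09 for *Casp4*, −0.03 to 0.13 for *Casp8*, −0.17 to 0.13 for *Casp9*, −0.01 to 0.21 for *Casp6*, −0.05 to 0.05 for *Tnfrsf1a*, −0.10 to 0.03 for *Cflar*, −0.25 to 0.13 for *Apaf1*, −0.39 to 0.15 for *Pycard* and −0.17 to 0.17 for *Dnajc16*. The cause of these turns was not tested. The median log2 fold change of the 3 tested death ligands was 0.47, and ran from 0.06 with array weights and 0.17 with no expression minimum to 0.88 with a pseudocount of 0.1, and from 0.17 (without control replicate 2) to 0.83 (without control replicate 1) with single libraries left out. Same-numbered libraries of the 2 groups deviated from their group means with correlations of −0.131, −0.11 and 0.0188 across genes. No strong pairing by number was seen, and 3 libraries a group cannot exclude a weak one. With the replicate block the log2 fold change of *Casp1* was 0.84 (limma adjusted p = 0.404), and 4 of all genes were called against 56 without it. Over all genes the calls were 10 with no expression minimum, 33 with no variance trend, 123 without mitochondrial and 45S ribosomal RNA, 153 with median-of-ratios size factors, 494 with array weights, and 5 (without control replicate 2) to 61 with single libraries left out. *AI507597* passed the threshold under 5 alternatives, and *Cpxm2* with array weights. The depth of single libraries is unknown, so values under 1 TPM have no known counting error.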

Other observations

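Several inflammasome sensor genes below the expression minimum were not tested, and their values are given here, chosen after they were seen. *Naip2*, a sensor of bacterial secretion system proteins, was at 0.38, 0.36 and 0.25 TPM in control and at 0.56, 0.78 and 0.52 TPM in knockouts 1, 2 and 3. *Nlrp1b* was at 0.07, 0.02 and 0.06 TPM against 0.14, 0.22 and 0.10 TPM. *Nlrp1a* was listed at 0 in the 3 control libraries and at 0.05, 0.06 and 0.05 TPM in the *Prdm16*SMKO libraries. In these 3 genes the groups did not overlap, while *Naip5*, *Nlrc4*, *Nlrp3*, *Nlrp6* and *Mefv* overlapped. Among tested genes 7.02% were apart and higher, and the share among genes below the minimum was not counted. The values of *Nlrp1a* stand near the 2 decimals to which TPM was rounded.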
